A study of Mus musculus with 11 samples.

Results

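The genes of the retinoic acid pathway examined here are Aldh1a2, Stra6, Crabp1, Crabp2, Rara, Rarb, Rarg, Cyp26a1 and Cyp26b1. They were chosen by symbol, and each of the 9 has an entry among the 23288 gene symbols of the expression table. RNA was measured in mouse ESCs of the E14Tg2A line, grown without feeder cells on gelatin in serum and LIF, after infection with lentiviruses carrying a control shRNA (shCtl, 2 libraries) or an shRNA against Cbx6 (shCbx6, 2 libraries). CBX6, CBX7 and RING1B are chromatin proteins of the Polycomb repressive complex PRC1, and their positions were taken from 4 lists of ChIP-seq peaks in the same line. Of these lists, 2 are replicate anti-HA experiments in cells whose own CBX6 carries an HA tag, and CBX7 and RING1B have 1 list each. The tagged cells were derived from sorted single cells by genome editing, and which of the Cbx6 shRNAs was sequenced is not given in the sources used here. Neither the labels nor the methods say whether replicate libraries came from separate cultures, so p-values measure only the spread between these libraries. Retinoic acid itself was not part of the design.

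Retinoic acid is made from vitamin A inside cells and acts as a ligand of nuclear receptors that sit on DNA as partners of the RXR receptors. The amount of ligand is set by uptake of retinol, oxidation by retinal dehydrogenases, binding to small cytoplasmic proteins and breakdown by cytochromes of the CYP26 family. In ESCs, added retinoic acid drives exit from pluripotency, and in the embryo its synthesis and breakdown pattern the hindbrain, trunk and limbs. The receptors recognise paired copies of a short core motif, and a pair in the same direction with 5 bases between the copies (DR5) is a classical binding element near genes that respond to the ligand.

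The promoters that carry such a pair, and the promoter of the synthesis gene for comparison, are printed because the peaks described here lie over them. Sequences are those of RefSeq on GRCm38.p6, read along the gene from 250 bases before to 50 bases after the start, and they were placed on mm9, the build of the peaks, by exact sequence match. Capitals mark a DR5, searched on both strands as 2 copies of the core AGGTCA in the same direction with 5 bases between them, where the first base of a copy may be A or G and the third G or T. The Cyp26a1 window lies at chr19:37772048-37772347 on the plus strand, and its DR5 reads on the opposite strand. The Rarb window lies at chr14:17407941-17408240 on the minus strand, and the Aldh1a2 window at chr9:71063346-71063645 on the plus strand holds no DR5.
Cyp26a1: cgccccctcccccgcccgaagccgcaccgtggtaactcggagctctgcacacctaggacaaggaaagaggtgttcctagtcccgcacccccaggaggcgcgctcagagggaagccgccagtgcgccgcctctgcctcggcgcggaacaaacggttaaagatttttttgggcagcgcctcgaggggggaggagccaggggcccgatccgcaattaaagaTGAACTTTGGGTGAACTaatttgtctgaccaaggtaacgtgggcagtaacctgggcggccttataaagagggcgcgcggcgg
Rarb: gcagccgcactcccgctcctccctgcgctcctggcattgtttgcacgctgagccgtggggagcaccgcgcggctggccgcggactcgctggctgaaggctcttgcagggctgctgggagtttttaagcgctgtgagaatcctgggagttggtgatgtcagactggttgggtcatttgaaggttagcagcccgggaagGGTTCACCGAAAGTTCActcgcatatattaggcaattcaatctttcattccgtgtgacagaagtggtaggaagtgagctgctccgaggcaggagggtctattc
Aldh1a2: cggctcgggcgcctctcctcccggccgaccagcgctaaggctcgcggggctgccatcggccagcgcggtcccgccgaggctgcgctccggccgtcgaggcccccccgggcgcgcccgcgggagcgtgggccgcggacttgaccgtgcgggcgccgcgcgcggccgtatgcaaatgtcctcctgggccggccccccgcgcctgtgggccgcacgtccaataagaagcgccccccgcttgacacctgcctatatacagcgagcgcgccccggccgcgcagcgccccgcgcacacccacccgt

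A DR5 was present in 32 of 32851 RefSeq promoter windows (0.0974%), so the windows of Cyp26a1 and Rarb were among few. In the Cyp26a1 window the element starts 32 bases before the first base of the gene, at chr19:37772266-37772282. In the Rarb window it starts 53 bases before the first base, at chr14:17408027-17408043. A longer window, from 2500 bases before to 500 after the start, held a DR5 in 203 of 20288 genes (1.0%) and added a further pair at Cyp26a1, GGGTCACAGGCGGGTCA, 1899 bases before the start at chr19:37770399-37770415. The promoter table held 15 windows for 8 of the 9 genes, without Crabp2. Pairs with 1 or 2 bases between the copies were searched in the same way and had no match at those 8 genes, which says only that these letters are not in the windows. Some GENCODE starts had no RefSeq window and were not searched, such as those of Rara at position 98821726 and Cyp26b1 at position 84538632. The Aldh1a2 window was 78.0% G and C and held 50 CpG, with an observed over expected CpG ratio of 1.114, and Cyp26a1 had 62.3% and 0.894. The Stra6, Cyp26b1 and Rarg windows at their first RefSeq starts had ratios of 0.215, 0.314 and 0.335, below the median of 0.384 over all windows.

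Expression was given as FPKM, the fragments of a gene scaled to transcript length and to the mapped fragments of the library, so levels can be set beside each other between genes. In shCtl cells the genes spanned from Rarg at a mean of 80.0 FPKM to Cyp26b1 at 0.00999 FPKM. Below Rarg came Rara at 17.1, Crabp1 at 10.6, Crabp2 at 1.68, Aldh1a2 at 0.466, Cyp26a1 at 0.124, Rarb at 0.117, Stra6 at 0.0292 and Cyp26b1. Of neighbours in that order, the 2 shCtl libraries of Cyp26a1 lay within the range of those of Rarb, and the libraries of every other pair of neighbours were separate. ESCs thus held RNA of 2 receptors and both binding proteins above 1 FPKM, and RNA of the synthesis, uptake and breakdown genes below it. The plot of FPKM in each library shows this order.

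**Figure D1:**
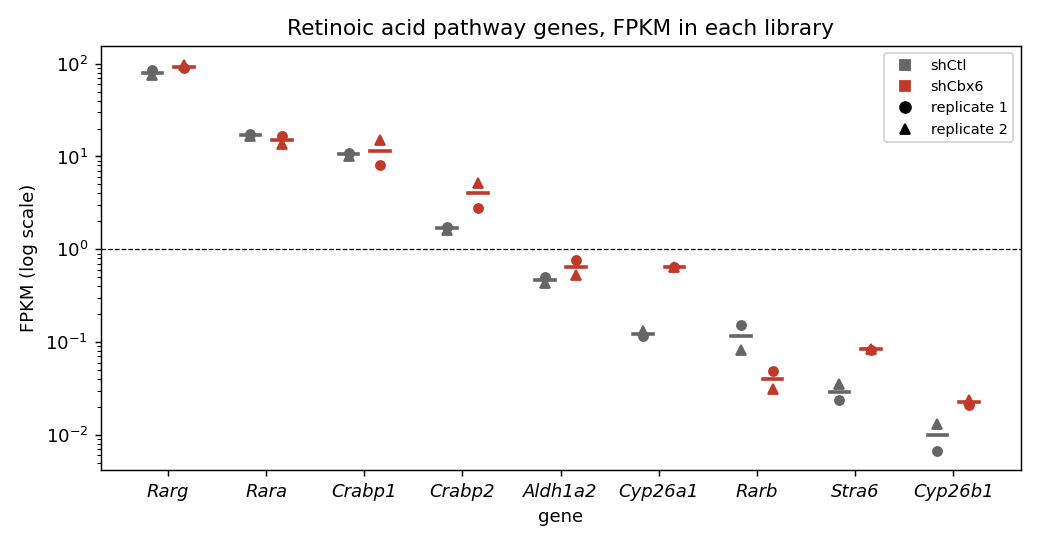
FPKM of the 9 genes on a log axis in each library, with shCtl in grey and shCbx6 in red, circles for replicate 1, triangles for replicate 2, short bars for group means and a dashed line at 1 FPKM. Cyp26a1 stands at means of 0.124 FPKM in shCtl and 0.643 FPKM in shCbx6 with replicates close together, while the shCbx6 libraries of Crabp1 and Crabp2 lie far apart.

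The reduction of the targeted gene was checked first. Cbx6 had 17.4 and 14.9 FPKM in the shCtl libraries and 9.53 and 5.40 FPKM in the shCbx6 libraries. The groups did not overlap, and the difference of -1.06 on the log2(FPKM + 1) scale (SE 0.263) had a limma adjusted p of 0.247. The call turned on the fit, with a limma adjusted p of 0.0425 with the replicate number as a block and 0.0296 without shCbx6 replicate 1, and the difference ran from -1.42 to -0.70 with a library left out. Replicate 2 of shCbx6 had the lower level. Summed FPKM of 10 pluripotency markers was 7803 and 8899 in shCtl against 7153 and 6110 in shCbx6, most of it Dppa5a. Of the 10, all above 1 FPKM, 7 were separate and lower, beside 24.4% of genes at that level, such as Klf4 with a ratio of the means of 0.344 and Nanog with 0.582, Utf1 was separate and higher at 1.37, beside 18.9%, and Sox2 and Fgf4 overlapped. Summed levels of 8 fibroblast markers, of which Lum and Fap were at 0, ranged from 1.69 to 1.72 FPKM in shCtl and from 1.37 to 4.67 FPKM in shCbx6, the highest in replicate 2. Those of 8 extraembryonic endoderm markers, with Afp and Ttr at 0, ranged from 1.94 to 2.13 and from 1.84 to 2.72 FPKM, those of 6 neural markers, with Neurog2 at 0, from 32.8 to 39.5 and from 26.4 to 33.2 FPKM, and those of 5 mesoderm markers from 1.83 to 2.58 and from 2.41 to 3.10 FPKM. The sums hide members with separate groups in both directions. Among neural markers Pax6 and Nes were higher in shCbx6, with ratios of the means of 3.59 and 3.49, and Tubb3, which makes up most of the sum, and Sox1 were lower, with ratios of 0.722 and 0.232. The mesoderm sum is mostly Eomes, which overlapped, while T, Mixl1 and Mesp1 were separate and higher, with a ratio of 9.31 for T at under 1 FPKM, and Kdr was separate and lower with a ratio of 0.566. Of the fibroblast markers 4 were separate and higher and 0 lower, and of the endoderm markers 3 were higher and 2 lower, beside 17.3% higher and 9.61% lower of all genes under 0.1 FPKM and 29.9% and 17.2% from 0.1 to under 1 FPKM. The part of other cell types in the differences described here was not tested, and in bulk RNA a change in the number of cells of a type cannot be told apart from a change in RNA per cell.

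Between shCbx6 and shCtl, no gene of the 9 passed limma at an adjusted p under 0.05. The test took in genes whose mean reached 1 FPKM in one of the groups or both, as for 4 of the 9, and it called 11 of 11592 genes (0.0949%). At an unadjusted p under 0.05, 1 of the 4 genes passed, against 11.7% of all tested genes. The median difference of the 4 was 0.14 on the log2(FPKM + 1) scale, beside -0.01 over all tested genes.

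Synthesis and uptake came first in the order of the pathway. Aldh1a2 encodes the main retinal dehydrogenase of the early embryo, and it had 0.498 and 0.434 FPKM in shCtl against 0.767 and 0.533 FPKM in shCbx6. Both shCbx6 libraries were above both shCtl libraries, with a ratio of the means of 1.39. Stra6, a membrane receptor that takes up retinol from its carrier in blood, had 0.0236 and 0.0349 FPKM in shCtl against 0.0829 and 0.0836 FPKM in shCbx6, a ratio of 2.85. Its groups did not overlap either, at a level more than 10-fold under 1 FPKM. Neither gene was tested at the 1 FPKM filter.

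The binding proteins carry retinoic acid inside the cell. Crabp2, which passes the ligand to the receptors, had 1.74 and 1.63 FPKM in shCtl against 2.82 and 5.20 FPKM in shCbx6. Both shCbx6 libraries were higher, with a difference of 0.86 on the log2(FPKM + 1) scale (SE 0.263), a limma p of 0.0206 and an adjusted p of 0.319. The 2.38-fold ratio of the means placed Crabp2 past 1.5-fold upward, as 7.63% of tested genes were. The size depended on the library, since the difference was 0.51 without shCbx6 replicate 2 and 1.21 without shCbx6 replicate 1, where the limma adjusted p was 0.0347, the lowest over the alternatives tried and 0.876 the highest. Crabp1, which is linked to storage and breakdown of the ligand, had 11.0 and 10.1 FPKM in shCtl against 8.12 and 14.9 FPKM in shCbx6. The shCbx6 libraries lay on either side of the controls, and the difference was 0.06 (SE 0.280, limma adjusted p = 0.965). Without shCbx6 replicate 2 it was -0.34.

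The tested genes nearest to Crabp2 over the 4 libraries, by Euclidean distance of log2(FPKM + 1), were Gap43 at 0.199, Plekhg2 at 0.251 and Tmem125 at 0.252. Gap43 had 1.93 and 1.90 FPKM in shCtl against 2.62 and 4.93 FPKM in shCbx6, with the highest value in the same library as Crabp2.

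The retinoic acid receptors differed in level more than in response. Rarg had 84.4 and 75.6 FPKM in shCtl against 89.5 and 96.2 FPKM in shCbx6, a difference of 0.21 (SE 0.147, limma adjusted p = 0.650). Rara had 17.3 and 16.8 FPKM in shCtl against 16.8 and 13.5 FPKM in shCbx6, a difference of -0.17 (SE 0.155, limma adjusted p = 0.740). With a library left out, the difference ran from -0.32 to -0.024 at Rara and from 0.13 to 0.29 at Rarg. For both receptors the groups were separate, at Rara by less than the printed digits show, and the ratio of the means stayed within 1.5-fold. Rarb, a receptor gene that retinoic acid itself induces through the DR5 in its promoter, had 0.153 and 0.0812 FPKM in shCtl against 0.0492 and 0.0313 FPKM in shCbx6. Both shCbx6 libraries were lower, the mean 2.91-fold under that of shCtl. With genes down to 0.1 FPKM admitted and 0.1 FPKM added, the difference was -0.61 (limma adjusted p = 0.595), and without a filter the limma adjusted p was 0.498.

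The breakdown genes were low in control cells. Cyp26a1, the hydroxylase that clears retinoic acid in the early embryo and a direct target of the receptors, had 0.115 and 0.132 FPKM in shCtl against 0.641 and 0.646 FPKM in shCbx6. The shCbx6 libraries agreed closely and stood 5.20-fold above the shCtl mean. It was the largest ratio among the 9 genes. Among the 3436 genes whose higher group mean lay from 0.1 to under 1 FPKM, 8.12% also stood at least 4-fold higher in the means with separate groups, so a ratio of this size was not rare at this level. Cyp26a1 missed the 1 FPKM filter. Without a filter its difference was 0.55 (SE 0.0452, limma adjusted p = 0.235, with 0.0108% of genes called), and with genes from 0.1 FPKM and 0.1 FPKM added it was 1.73 (SE 0.309, limma adjusted p = 0.151, with 0.0932% of genes called). The unadjusted limma p of that last fit was 0.0019, and 6.1% of its genes were higher at an unadjusted p under 0.05. Cyp26b1, a related hydroxylase known from limb and germ cells, had 0.00671 and 0.0133 FPKM in shCtl against 0.0211 and 0.0238 FPKM in shCbx6. Its groups were separate.

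How many fragments lay behind the low values was estimated from their steps. For 6 genes, the FPKM in the 4 libraries were whole multiples of a common unit to within 0.005, once the relative depths of the libraries (1, 1.01, 0.956 and 1.13 in the order shCtl replicates 1 and 2, shCbx6 replicates 1 and 2) were allowed for. The multiples given are the smallest that match. Stra6, under 0.1 FPKM in every library, had no such match and so has no fragment estimate or interval. Cyp26a1 corresponded to 6 and 7 fragments in shCtl against 32 and 38 in shCbx6, and the ratio scaled for depth was 5.20 with an exact 95% interval from 2.85 to 10.3. Rarb corresponded to 13 and 7 fragments in shCtl against 4 and 3 in shCbx6, a ratio of 0.338 from 0.121 to 0.833. Both intervals leave out equality, and they cover counting error only, not the spread between cultures.

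For Crabp2 the multiples were 40 and 38 in shCtl against 62 and 135 in shCbx6, a ratio of 2.44 with an interval from 1.87 to 3.21. Aldh1a2 stood at 34 and 30 against 50 and 41, a ratio of 1.37 from 0.987 to 1.92, and no difference was detectable at this depth. Crabp1 stood at 196 and 182 against 138 and 299, a ratio of 1.12 from 0.971 to 1.29. Cyp26b1 rested on 1 and 2 against 3 and 4 fragments, a ratio of 2.25 from 0.515 to 13.5, so its higher values in shCbx6 were not distinguishable from counting error.

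Of the 9 genes, 6 had both shCbx6 libraries above both shCtl libraries (Aldh1a2, Stra6, Crabp2, Rarg, Cyp26a1 and Cyp26b1), 2 had them below (Rara and Rarb) and Crabp1 overlapped. Separate groups were common in these data. At 1 FPKM or more, 18.9% of genes were separate and higher in shCbx6 and 24.4% separate and lower. From 0.1 to under 1 FPKM the shares were 29.9% and 17.2%, and under 0.1 FPKM they were 17.3% and 9.61%. By the ratio of the means, Crabp2 was past 1.5-fold upward and none of the tested genes downward, beside 7.63% and 6.56% at 1 FPKM or more. From 0.1 to under 1 FPKM, Cyp26a1 was past it upward and Rarb downward, beside 34.3% and 17%, and under 0.1 FPKM both Stra6 and Cyp26b1 were past it upward, beside 46.9% upward and 28.4% downward. Cyp26a1 and Rarb, the genes with a DR5 in the windows searched at 8 of the 9, thus lay in opposite directions, and both were under the 1 FPKM filter.

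Further genes of the pathway were read in the same way. Of 43 further genes 42 were listed, 20 were tested and 0 passed limma at an adjusted p under 0.05, while 3 were higher and 4 lower at an unadjusted p under 0.05, beside 5.12% and 6.55% of all tested genes. Their median difference was -0.10 on the log2(FPKM + 1) scale, beside -0.01 over all tested genes. Fabp5, which carries fatty acids and can carry retinoic acid, had 23.7 and 22.8 FPKM in shCtl against 37.6 and 64.4 FPKM in shCbx6. Rbp7, a cellular retinol-binding protein, had 0.620 and 1.45 FPKM in shCtl against 1.62 and 5.09 FPKM in shCbx6. Both carriers had separate groups and a ratio of the means past 1.5-fold, with limma adjusted p of 0.255 and 0.476. The difference of Fabp5, 1.05, ran from 0.67 without shCbx6 replicate 2 to 1.43 without replicate 1, and that of Rbp7, 1.00, from 0.39 to 1.61. Like Crabp2, each was highest in shCbx6 replicate 2, and without shCbx6 replicate 1 Fabp5 had a limma adjusted p of 0.0264, the lowest of its alternatives, with 0.796 as the highest.

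Among the receptor partners, Rxrg had the largest ratio of the means, with 0.205 and 0.203 FPKM in shCtl against 1.28 and 1.17 FPKM in shCbx6. Its difference of 0.88 (SE 0.194) had a limma adjusted p of 0.213, and its replicates lay close together. Rxrb had 23.1 and 22.8 FPKM in shCtl against 27.9 and 27.0 FPKM in shCbx6 (limma adjusted p = 0.538), and Rxra had 3.84 and 3.36 FPKM in shCtl against 2.00 and 3.00 FPKM in shCbx6 (limma adjusted p = 0.514). Of the reductases and dehydrogenases that interconvert retinol and retinal, Rdh11, Rdh14 and Rdh10 had differences of 0.05, -0.05 and 0.04 (SE 0.154, 0.279 and 0.181) with overlapping groups. Cyp26c1, the neighbour of Cyp26a1, stayed at or under 0.0441 FPKM in every library with overlapping groups.

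Of 14 genes known to respond to retinoic acid 5 were tested, of which 3 were separate and lower in shCbx6 and 0 separate and higher, beside the 24.4% and 18.9% of all genes at this level. Cdx1, a homeobox gene of the posterior embryo, had 2.58 and 2.80 FPKM in shCtl against 0.797 and 0.659 FPKM in shCbx6, a difference of -1.09 (SE 0.173, limma adjusted p = 0.123, with 0.0398 without shCbx6 replicate 1 as the lowest of its alternatives and 0.687 as the highest). Gbx2, a homeobox gene of the anterior hindbrain that is also expressed in naive ESCs, had 20.8 and 21.0 FPKM in shCtl against 13.5 and 10.3 FPKM in shCbx6 (-0.78, SE 0.166, limma adjusted p = 0.201). The call of Gbx2 turned on the fit, with a limma adjusted p of 0.0489 with the replicate number as a block. Stra8, a germ cell gene named for its response to the ligand, had 4.03 and 3.36 FPKM in shCtl against 1.82 and 2.38 FPKM in shCbx6 (-0.60, SE 0.180, limma adjusted p = 0.313). In all 3 the groups were separate and lower in shCbx6, whereas Bhlhe40 overlapped with 9.30 and 8.83 FPKM in shCtl against 13.8 and 8.93 FPKM in shCbx6. Hoxb1, listed at 0 in both shCtl libraries, had 0.0843 and 0.0715 FPKM in shCbx6, separate and higher as 17.3% of genes under 0.1 FPKM were. Foxa1 had 0.0709 and 0.1000 FPKM in shCtl against 0.0318 and 0.0629 FPKM in shCbx6, separate and lower beside 9.61%. The other responsive genes that were not tested overlapped. Hoxb1 and Foxa1 were named after their values were seen.

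Co-regulators of the receptors were mostly lower in shCbx6. Of 6 tested, 4 were separate and lower and 1 separate and higher, beside 24.4% and 18.9% of all genes at this level. Ncoa1, a coactivator, had 4.12 and 3.69 FPKM in shCtl against 2.60 and 2.57 FPKM in shCbx6 (-0.45, limma adjusted p = 0.350). Ncor1, a corepressor, had 45.9 and 33.4 FPKM in shCtl against 34.5 and 31.0 FPKM in shCbx6, with overlapping groups. Ncoa3 had 38.9 and 38.9 FPKM in shCtl against 32.5 and 37.4 FPKM in shCbx6.

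**Figure D2:**
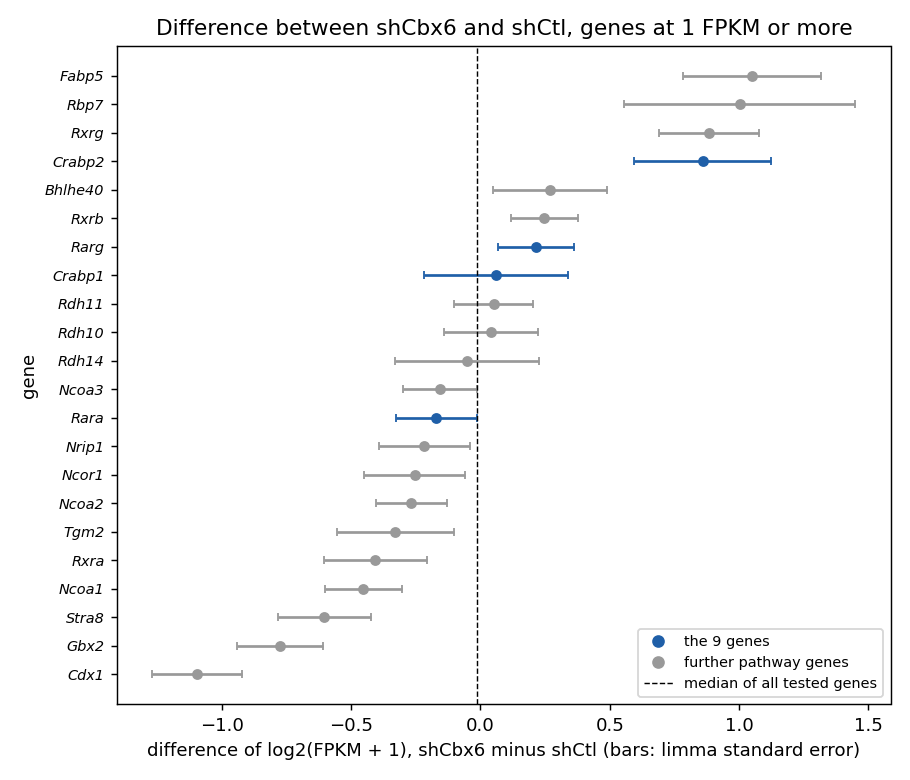
Difference of log2(FPKM + 1) between shCbx6 and shCtl for tested pathway genes, with limma standard errors as bars, 4 of the 9 genes in blue, further genes in grey and the median of all tested genes as a dashed line. The carriers Fabp5, Rbp7 and Crabp2 and the receptor partner Rxrg are at the upper end between 0.86 and 1.05, and Cdx1 is lowest at -1.09.

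Polycomb occupancy differed among the 9 genes. A gene was counted with a list when a peak touched the gene or the 2.5 kb upstream of its start. By that rule 9 genes had a peak of CBX6 replicate 1, 6 of CBX6 replicate 2, 5 of CBX7 and 5 of RING1B. Over 21951 genes the shares were 56.9%, 16.6%, 17.9% and 16.1%. Peaks of all 4 lists were present at Cyp26a1, Cyp26b1, Aldh1a2 and Crabp1, against 11.5% of all genes. Within 2.5 kb of an annotated start, 8, 5, 5 and 5 of the 9 had a peak in the same order of lists, beside 54.1%, 15.6%, 17% and 15.3% of all genes. The genes with all 4 lists are both breakdown genes, the synthesis gene and 1 binding protein, of which Crabp1 alone was above 1 FPKM. The receptors Rara and Rarg had no CBX7 or RING1B peak by the rule.

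**Figure D3:**
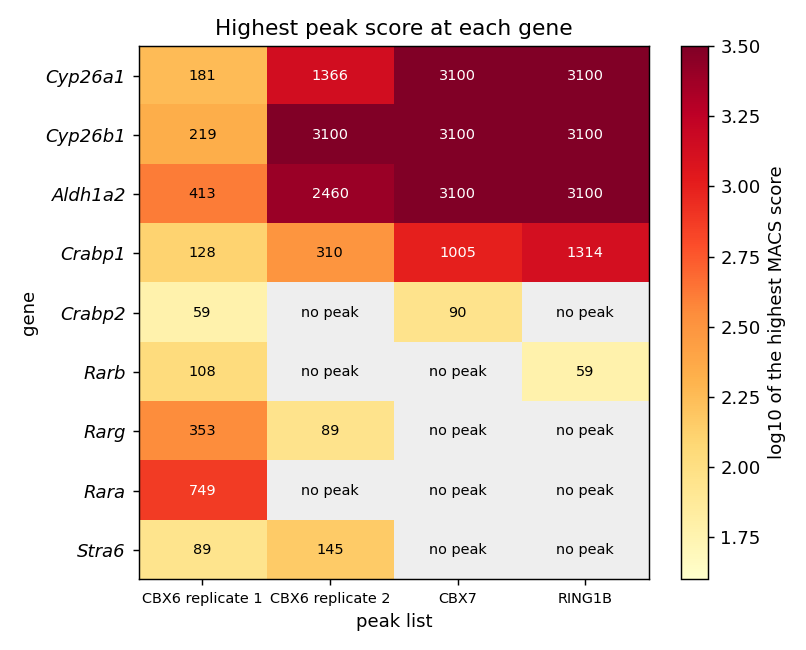
Highest MACS score of a peak at each of the 9 genes (rows) in each peak list (columns), with colour on a log10 scale and grey where the list has no peak by the rule. Cyp26a1, Cyp26b1 and Aldh1a2 reach 3100 in the CBX7 and RING1B lists, Crabp1 reaches 1005 and 1314, and the other genes stay under 100 there or have no peak.

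The score is the one MACS gave each peak within its list, and scores of different lists are not on one scale. A score of 3100.0 recurs at 403 CBX7 peaks and 507 RING1B peaks, so peaks at that value cannot be ranked. At Cyp26a1 the peak over the start lay at chr19:37769386-37775499 in the CBX7 list, at chr19:37769476-37774933 in the RING1B list and at chr19:37769533-37774832 in CBX6 replicate 2, widths of 6114, 5458 and 5300 bp. Their scores were 3100.0, 3100.0 and 1366, the last above 91.7% of its list. CBX6 replicate 1 had a peak of 3266 bp with a score of 181. The DR5 near the start lay inside the peaks of all 4 lists, and the distant DR5 inside those of CBX6 replicate 2, CBX7 and RING1B.

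Around Cyp26a1 the peaks went on upstream over Cyp26c1, which encodes another hydroxylase of the same family. From the start of Cyp26c1 to the end of Cyp26a1, a stretch of 15948 bp, peaks covered 96.7% in the CBX7 list, 80.7% in the RING1B list, 67.3% in CBX6 replicate 2 and 40.8% in CBX6 replicate 1. Cyp26c1 itself had peaks of all 4 lists. The pair thus shared a domain. Of the pair, Cyp26a1 had separate groups in RNA and was higher in shCbx6, beside 29.9% of genes from 0.1 to under 1 FPKM. Cyp26c1 overlapped, but at 0.0441 FPKM or less its values were too low to show whether it changed.

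Aldh1a2 was covered at its start by a single peak in each list. The CBX7 and RING1B peaks lay at chr9:71062739-71065609 and chr9:71062662-71066159, both with a score of 3100.0. The CBX6 peaks scored 413 in replicate 1, above 98.6% of the list, and 2460 in replicate 2, above 95.8%. This start is the CpG-rich window printed above. Cyp26b1 had the widest single peak of the 9 genes by the rule in the CBX6 replicate 2, CBX7 and RING1B lists, with 8730 bp in the CBX7 list at chr6:84531934-84540663, 8389 bp in the RING1B list and 7693 bp in CBX6 replicate 2, all at a score of 3100.0. These peaks lay in the gene body, beginning 2951 to 3289 bases after the RefSeq start, and covered a GENCODE start at position 84538632 further along the gene. CBX6 replicate 1 had 3 peaks over the same span, the highest at 219.

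Crabp1, in contrast to the other genes with all 4 lists, had a mean of 10.6 FPKM in shCtl. Its start was covered in each list, by peaks of 3993 bp in the CBX7 list (score 1005), 3251 bp in the RING1B list (1314), 2208 bp in CBX6 replicate 2 (310) and 2571 bp in CBX6 replicate 1 (128). The RING1B score was above 73.0% of its list.

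**Figure D4:**
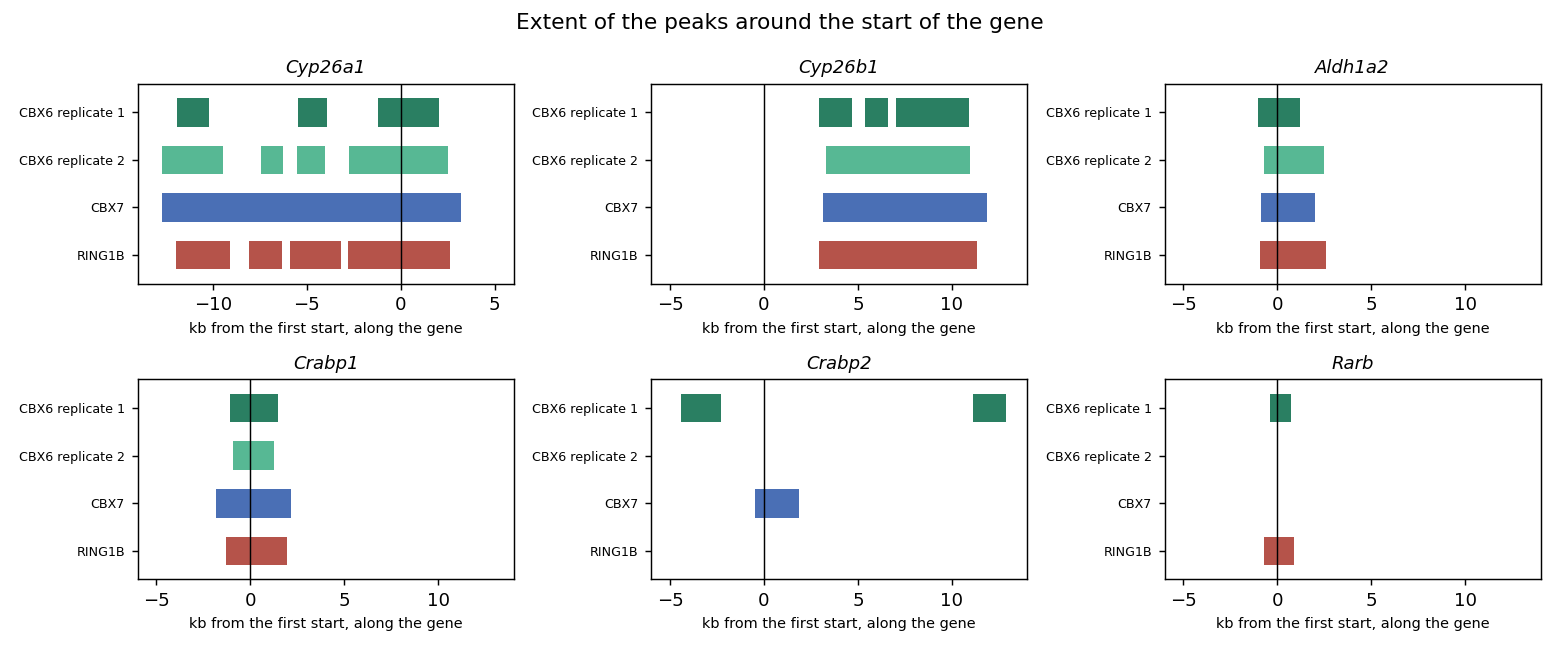
Extent of the peaks of each list around the first start of 6 genes, as distance in kb along the gene, with the start as a vertical line. Peaks cover the starts of Cyp26a1, Aldh1a2 and Crabp1 in all 4 lists and begin about 3 kb inside Cyp26b1, and the panels of Crabp2 and Rarb hold few and narrow peaks.

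The other 5 genes had weak or uneven occupancy. Crabp2, which had the largest difference of the 4 tested genes among the 9, had a CBX7 peak of score 90.2 over its start. A CBX6 replicate 1 peak of score 59.1 lay upstream of it, and by the rule Crabp2 had no peak of CBX6 replicate 2 or RING1B. Outside the rule, each list had a peak that began 21295 to 22239 bases after the start of Crabp2. Scores there were 1337 in the CBX7 list, 925 in the RING1B list, 350 in CBX6 replicate 2 and 181 in CBX6 replicate 1. Rarb had a CBX6 replicate 1 peak of score 55.5 and a RING1B peak of score 59.2 over the start with the DR5, above 9.6% and 5.3% of their lists. A stronger CBX6 replicate 1 peak of score 108 lay 140009 bases away in an intron. At a minimum score of 100, the genes with a CBX7 or a RING1B peak by the rule were Cyp26a1, Cyp26b1, Aldh1a2 and Crabp1.

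By the rule, Rara and Rarg, the receptors with the highest RNA, were marked almost only in CBX6 replicate 1, with 7 peaks each. The highest at Rara scored 749, above 99.9% of that list, and ran over 6652 bp at chr11:98820469-98827120, across a downstream start. The highest at Rarg scored 353. Past the end of Rara, outside the rule, each list had a peak 16198 to 16713 bases from its nearest RefSeq start. Scores there were 309 in the CBX7 list, 297 in the RING1B list, 128 in CBX6 replicate 2 and 198 in CBX6 replicate 1. CBX6 replicate 2 had no peak at Rara by the rule. At Rarg it had a peak of 793 bp with a score of 89.0, inside a replicate 1 peak of score 133. The replicate 2 peak ended 15 bases from a RefSeq start and covered a GENCODE start at position 102087780. The replicate lists thus shared a peak at the Rarg promoter and disagreed at the other peaks of these genes by the rule. Replicate 1 holds 21865 peaks and replicate 2 holds 5103, and the depth behind each list is unknown. Stra6 had 2 peaks in CBX6 replicate 1 and 1 in replicate 2, but they lay at least 14602 bases before its first RefSeq start, within long GENCODE transcripts only, and no list had a peak within 2.5 kb of any of its annotated starts.

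Of the 42 further genes with coordinates, 29 had a peak of CBX6 replicate 1, 21 of CBX6 replicate 2, 24 of CBX7 and 20 of RING1B, shares of 69.0%, 50.0%, 57.1% and 47.6% beside the 56.9%, 16.6%, 17.9% and 16.1% over all genes. Peaks of all 4 lists, present at 11.5% of all genes, were found at 10 of 14 responsive genes, 3 of 11 synthesis genes, 1 of 7 carriers, 1 of 6 co-regulators, 1 of 3 receptor partners and the 1 degradation gene, and differences between the roles were not tested. Several responsive genes had peaks of score 3100.0 and little RNA, such as Nr2f2 with 0.0229 and 0.0376 FPKM in shCtl against 0.0159 and 0.0609 FPKM in shCbx6, and Meis1 with 0.215 and 0.114 FPKM in shCtl against 0.176 and 0.265 FPKM in shCbx6, both with overlapping groups and named after their values were seen. Fabp5 had a CBX7 peak and a weak CBX6 replicate 1 peak without RING1B, the combination found at Crabp2, and Rbp7 had no peak in any list. Rxrg had peaks of CBX6 replicate 2, CBX7 and RING1B with scores of 72.0, 113 and 120.

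Set side by side, the 4 genes with peaks of all lists had RNA ratios of shCbx6 over shCtl of 5.20 at Cyp26a1, 2.25 at Cyp26b1, 1.39 at Aldh1a2 and 1.09 at Crabp1. The other 5 had ratios of 2.85 at Stra6, 2.38 at Crabp2, 1.16 at Rarg, 0.887 at Rara and 0.344 at Rarb. The ratios of the groups of genes overlapped, and with 9 genes no relation between occupancy and RNA was tested.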

How the data were processed

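Per the labels, RNA-seq of 2 shCtl and 2 shCbx6 libraries and 7 ChIP-seq samples were made, of which 4 peak lists were used. The authors aligned paired-end reads uniquely to mm9 with TopHat and estimated FPKM of RefSeq transcripts with Cufflinks. The way in which transcript values became 1 value per gene is not given in the sources used here. The authors aligned ChIP-seq reads with Bowtie, keeping unique matches, and called peaks per sample with MACS at a shift size of 75 bp. The deposited score of a peak is the MACS score. Tool versions are not given in the sources used here, and the total depth per library is unknown. The anti-HA control in parental cells and the IgG samples were not analysed here.

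From the deposited FPKM, limma 3.58.1 (R 4.3.3) was fitted on log2(FPKM + 1) to all genes whose mean reached 1 FPKM in shCtl, in shCbx6 or in both, with lmFit, eBayes with a trend and Benjamini-Hochberg adjustment, two-sided, at 0.05. A difference on this scale understates the change of low genes. Ratios of mean FPKM carry no test. The step was tested on simulated data. Of the 23290 table entries, 4 shared a symbol, 25 were dates, and 21951 symbols matched the GENCODE annotation of mm9. Peaks were overlapped by at least 1 bp in Python 3.11.15 with pandas 2.3.3, and exact intervals came from scipy 1.17.1. Figures were drawn with matplotlib 3.10.9.

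The 9 genes and all lists were chosen with earlier results of these data known. Named are the 9 genes, Cbx6, further genes with an unadjusted p under 0.05 and separate groups, the 3 most abundant of each role, and the 3 genes nearest to the gene with the largest difference among the tested genes of the 9. Some genes that meet this rule are not reported here or drawn. Alternatives covered the pseudocount, the filter, the scaling, a replicate term, the trend, each library left out, and the peak window, score, overlap and starts. The filter of 0.1 FPKM and the RefSeq starts were added after seeing the data.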

Additional observations from a re-analysis of the deposited data

How the results depend on the processing

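No gene of the 9 passed limma at an adjusted p under 0.05 in any of the alternatives with all libraries, and leaving out a library gave 0 to 1, the 1 being Crabp2 without shCbx6 replicate 1. Of the further genes, 0 passed in the fit as reported, and leaving out a library gave 0 to 3 (Fabp5 and Cdx1 among them, without shCbx6 replicate 1). Over all genes, 11 calls became 17 with a pseudocount of 0.1, 2 with no filter and 19 to 398 with a library left out. Without shCbx6 replicate 1 the remaining library of that group is assumed to vary like the others. Genes past 1.5-fold numbered 1646, and 6096 with no filter, 707 at 2-fold, 1091 with 1 FPKM added and 1482 to 2593 with a library left out. With a library left out the sign turned for Crabp1 (-0.34 to 0.46), Rdh10 (-0.064 to 0.14), Rdh11 (-0.084 to 0.19), Rdh14 (-0.38 to 0.28) and Bhlhe40 (-0.020 to 0.56), none of them called in any of these fits. The causes were not tested. Counts of the 9 genes with peaks stayed within 1.5 times in each list under every alternative.

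The replicate numbers are only shared labels. With the number as a replicate block, 388 genes passed over all, 0 of the 9 and 2 of the further genes (Cdx1 and Gbx2), Cbx6 passed as well (limma adjusted p = 0.0425), and 1016 genes were past 1.5-fold in both same-numbered pairs. The difference between replicates 1 and 2 correlated between shCtl and shCbx6 at 0.266 over 11592 genes, which are not independent.

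With 2 libraries per group, low numbers of fragments limit Cyp26a1, Cyp26b1 and Rarb. Stra6, under 0.1 FPKM in every library, has no fragment estimate. Without the ChIP-seq depth a missing peak does not show absence of a protein.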
